A study of Homo sapiens with 48 samples.

Results

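TXNIP, the arrestin-domain genes ARRDC2, ARRDC3 and ARRDC4, and the TSC22-family genes TSC22D1 and TSC22D3 were followed in 48 RNA-seq libraries of a human kidney-derived cell line in which UPF1 was depleted and replaced by mutants. The 6 genes were taken by name from a table of 57820 genes, and all 6 were among the 19129 genes with enough reads to test. They were selected on the siUPF1 against siNT log2 fold changes of these data: TXNIP and TSC22D3 were known to be among the genes with the largest differences after UPF1 depletion in the line without a UPF1 transgene. The values of that line, where the size and direction of TXNIP and TSC22D3 were known, are therefore given as a description with no test. The tests in the other 7 lines concern genes whose direction was not blind.

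TXNIP and the ARRDC proteins are alpha-arrestins, adaptors that bring membrane proteins together with ubiquitin ligases of the NEDD4 family and so promote their internalisation. TXNIP also binds and inhibits thioredoxin and lowers glucose uptake, and its gene and that of ARRDC4 are known targets of the glucose-sensing transcription factor MondoA (MLXIP) with its partner MLX. TSC22D3, also called GILZ, is a leucine-zipper protein known as a glucocorticoid-induced inhibitor of AP-1 and NF-kappaB, and TSC22D1 is a related protein of which a long form works with WNK kinases in cell-volume control. UPF1 is the RNA helicase and ATPase at the centre of nonsense-mediated mRNA decay (NMD), which degrades transcripts that end translation too early or in an unusual context.

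The cells were Flp-In 293 T-REx, a derivative of HEK293 with a single integration site for transgenes. There were 8 stable lines. The line called CLIP carried the CLIP protein tag without UPF1. The other 7 carried CLIP-tagged UPF1, either wild type (WT) or with the mutation K498A, DE636AA, R843C, A546H, GA-KH or E797R; K498A and DE636AA are known to block ATP binding and ATP hydrolysis. Each line received 40 nM of a non-targeting siRNA (siNT) or of an siRNA against UPF1 (siUPF1) for 72 h, and each of the 16 groups had 3 libraries, described by the study as biological replicates. Every line thus carried a CLIP-tag transgene, under both siRNAs. The labels do not say whether a line was 1 clone, so a difference between lines cannot be told apart from a difference between the cells that founded them.

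Library totals ran from 21.3 M to 47.1 M expected counts (M, mega; median 32.3 M). UPF1, whose counts hold transgene and endogenous reads together, stood at 105, 106 and 113 CPM (counts scaled to a common library total) in CLIP siNT and at 18.2, 36.8 and 17.7 CPM in CLIP siUPF1. In the 42 libraries of the other 7 lines it stood between 3690 and 8240 CPM, so depletion of the endogenous transcript cannot be read there. CLIP siUPF1 replicate 2, the library with 36.8 CPM, also stood apart in its mitochondrial share, 0.631% against 1.53% to 2.92% in the other 47. VIM (430 to 807 CPM) and KRT8 (131 to 207 CPM), both known from HEK293 cells, were present throughout. Of 7 genes known from HEK293 cells, NEFL was called higher and NES and PAX2 lower after siUPF1 in all 8 lines, KRT18 higher in 5, KRT8 lower in A546H and GA-KH, and NEFM higher in A546H, GA-KH and E797R. VIM was called lower in K498A and DE636AA and higher in CLIP, the last lost without siUPF1 replicate 2 (0.05, edgeR adjusted p = 0.666). In CLIP 3 of these 7 genes were called higher and 2 lower, but 1 and 3 without that library. NEFL or KRT18 thus lost its CLIP call too. Of all tested genes 47.4% were called either way in CLIP, and 40.5% without that library. In the 7 lines with tagged UPF1, 14% to 17.7% were called higher and 13.3% to 17.6% lower. Of 12 markers of other cell types, 6 could be tested. The blood-cell markers PTPRC and CD3E reached at most 0.0934 CPM, but EPCAM stood at 64.9 to 100 CPM, COL3A1 at 2.61 to 13.4 CPM and CD14 at 0.401 to 1.66 CPM. COL3A1 and VWF (at most 1.6 CPM) were each called higher in 6 lines, CD14 higher in CLIP, and EPCAM lower in K498A and DE636AA. Their part in the results was not tested.

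The region upstream of a transcription start is one place where MondoA, FOXO and glucocorticoid receptor sites would be sought. Shown are 4 such regions: those of the 3 genes whose levels moved most and of ARRDC2, which moved in only some lines. Each is the 250 bases before an annotated start, from RefSeq on GRCh38.p14, read 5′ to 3′ on the strand of the gene. Where a gene has several starts, the one with the most motif matches is shown. Capitals mark matches, on either strand, to a paired E-box (the carbohydrate response element), a single E-box, a FOXO core, a CCAAT box, a TATA box or an AP-1 site. They lie at chr1:145996580-145996829 on the minus strand (TXNIP), chr15:97960453-97960702 on the plus strand (ARRDC4), chrX:107717063-107717312 on the minus strand (TSC22D3) and chr19:18007920-18008169 on the plus strand (ARRDC2).
TXNIP: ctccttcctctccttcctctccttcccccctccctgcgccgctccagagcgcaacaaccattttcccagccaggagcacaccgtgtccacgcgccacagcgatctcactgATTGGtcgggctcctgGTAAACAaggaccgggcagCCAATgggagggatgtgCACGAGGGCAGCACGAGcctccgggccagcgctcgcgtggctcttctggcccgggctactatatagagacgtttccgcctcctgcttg
ARRDC4: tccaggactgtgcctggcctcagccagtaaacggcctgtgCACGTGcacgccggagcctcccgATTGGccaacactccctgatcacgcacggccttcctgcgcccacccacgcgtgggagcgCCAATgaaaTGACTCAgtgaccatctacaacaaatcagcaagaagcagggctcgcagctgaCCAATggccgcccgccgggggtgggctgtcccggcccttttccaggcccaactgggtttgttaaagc
TSC22D3: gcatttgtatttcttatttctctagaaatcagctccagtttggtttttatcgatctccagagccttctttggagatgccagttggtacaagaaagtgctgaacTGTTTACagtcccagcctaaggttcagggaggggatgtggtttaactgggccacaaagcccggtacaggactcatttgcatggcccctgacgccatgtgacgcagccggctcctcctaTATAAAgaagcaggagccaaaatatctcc
ARRDC2: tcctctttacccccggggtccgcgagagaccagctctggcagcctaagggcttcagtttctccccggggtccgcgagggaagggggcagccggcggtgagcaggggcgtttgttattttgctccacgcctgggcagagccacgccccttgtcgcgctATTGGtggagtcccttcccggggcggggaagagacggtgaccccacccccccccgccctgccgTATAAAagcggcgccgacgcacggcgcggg

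The paired E-box, the form of element known for MondoA and its relative ChREBP, was found in the TXNIP region and in no other of the 16 start regions of the 6 genes. It read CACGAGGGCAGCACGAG and lay at bases -88 to -72 relative to the start. These letters occurred in 16 of 35116 upstream windows of the same length in the RefSeq table (0.0456%). The single E-box has the letters CACGTG, which a paired one can contain but which the TXNIP match does not. It was found for ARRDC4 (bases -210 to -205) and for 1 start of TSC22D1, so in 2 of the 16 windows, against 6.34% of all windows. A FOXO core, with the letters GTAAACA, was found for 1 start each of TXNIP, TSC22D3 and ARRDC3. These were 3 of the 16 windows, against 2.98% of all windows. CCAAT boxes, present in 32% of windows, were found in 6 of the 16, for every gene but TSC22D3. TXNIP had 2 and ARRDC4 had 3 in 1 window. A TATA box (TATAAA), present in 10.7% of windows, was found in 4 of the 16: for TSC22D3, ARRDC2 and 2 starts of TSC22D1. The AP-1 letters TGACTCA (4.2% of windows) were found in 2 of the 16: for ARRDC4 and 1 start of TSC22D1. The full palindromic glucocorticoid response element was found in none of the 16 windows and in 1 of all 35116. Letters that rare could hardly have been found in 16 windows, so their absence says nothing about such sites for these genes. The matches describe letters in these windows and are no evidence that a factor was bound.

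Annotated transcript structure, in GENCODE models on GRCh38, was examined because UPF1 targets are often recognised by features around the stop codon. An intron more than 50 bases after the stop codon would leave an exon-junction complex behind a terminating ribosome. None was annotated in the longest protein-coding transcripts of the 6 genes, against 0.368% of 14116 protein-coding genes compared in the same way. Transcripts of the NMD class were left out of that search. Few genes had such an intron in it, so its absence from the 6 genes carries no weight. A transcript of the NMD class was annotated for TSC22D1 alone (1 of its 13 transcripts), against 41.1% of the protein-coding genes compared. Their 3′ untranslated regions were 1416 bases long for TXNIP, 1136 for ARRDC2, 2676 for ARRDC3, 2651 for ARRDC4, 1107 for TSC22D1 and 1295 for TSC22D3. All 6 were above the median of 967 bases, and between 19.7% (ARRDC3) and 46.1% (TSC22D1) of genes had a longer one.

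TXNIP, the arrestin that binds thioredoxin, was higher after UPF1 siRNA in every line, and its highest means after siUPF1 were those of CLIP (33.7 CPM) and R843C (32.1 CPM). In the CLIP line TXNIP stood at 7.5, 9.1 and 5.7 CPM with siNT and at 36.6, 35 and 29.5 CPM with siUPF1. The groups did not overlap, and the difference was 2.18 on the log2 scale (SE 0.21), 4.52-fold. In the WT line it stood at 10.2, 11.3 and 8.0 CPM with siNT and at 20.6, 17.5 and 13.5 CPM with siUPF1. Here too every siUPF1 library was above every siNT library, but the rise was smaller: 0.82 (SE 0.20), 1.76-fold, with an adjusted p of 0.00216 by edgeR's quasi-likelihood test.

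The 6 mutant lines gave TXNIP rises between 2 and 3.11-fold. In R843C the siNT libraries stood at 11, 11.3 and 8.7 CPM and the siUPF1 libraries at 35.4, 33 and 28 CPM, a level close to that of the CLIP line. The rise there was 1.64 on the log2 scale (SE 0.20, edgeR adjusted p = 3.52e-08). In A546H TXNIP went from 7.4, 11.1 and 10 CPM to 24.6, 27.3 and 26.6 CPM, a rise of 1.46 (SE 0.20, edgeR adjusted p = 4.37e-07). The ATP-binding mutant K498A had 14.5, 10.8 and 8.7 CPM against 30.7, 23.5 and 19.8 CPM (log2 rise 1.12), and the hydrolysis mutant DE636AA 9.2, 15.6 and 10.7 against 21.8, 28.9 and 21.4 CPM (1.03). GA-KH went from 6.9, 10.5 and 8.3 to 15.8, 22.5 and 16.9 CPM (1.09). E797R had the lowest levels under both siRNAs, 5.6, 6.3 and 6.7 CPM and then 13, 12.1 and 12.1 CPM, and its log2 rise of 1.00 was the smallest estimate among the 6 mutants, close to those of DE636AA and GA-KH. The groups did not overlap in any of these lines, and the largest edgeR adjusted p among the 6 mutant lines was 0.00028, in E797R.

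ARRDC4, the closest relative of TXNIP among the arrestins and likewise known to lower glucose uptake, was higher in all 8 lines too. CLIP held 55.5, 55 and 61.8 CPM with siNT and 238, 189 and 268 CPM with siUPF1, a log2 difference of 2.01 (SE 0.19), 4.04-fold. In WT the levels were 68, 53.9 and 71.3 CPM against 108, 86.1 and 105 CPM, with no overlap. The rise in WT was 0.63 (SE 0.19), 1.54-fold, with an edgeR adjusted p of 0.00943. That call was lost without WT siNT replicate 2 (0.51, edgeR adjusted p = 0.0719) and without WT siUPF1 replicate 1 (0.55, adjusted p = 0.0505).

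In the mutant lines ARRDC4 fell into a higher and a lower set of levels. K498A went from 95.4, 66.9 and 79.8 to 260, 182 and 216 CPM, and DE636AA from 69.1, 103 and 92.2 to 165, 265 and 233 CPM. R843C went from 78.4, 73.6 and 91.9 to 180, 182 and 213 CPM, and A546H from 70, 77.6 and 75.5 to 163, 195 and 198 CPM. The log2 rises of these 4 lines were 1.44, 1.33, 1.24 and 1.32, with edgeR adjusted p of at most 1.66e-06. GA-KH (45.3, 71.5 and 56.6 against 73.4, 126 and 95.6 CPM) and E797R (38.6, 34.8 and 49.9 against 68, 60.5 and 79.1 CPM) had siUPF1 means of 98.3 and 69.2 CPM, beside 99.5 CPM in WT. Their log2 rises were 0.76 and 0.75, with edgeR adjusted p of 0.0016 and 0.00197, and no siUPF1 library overlapped the siNT libraries of its line. Without GA-KH siUPF1 replicate 2 the rise there was 0.52 and no longer passed (adjusted p = 0.0508).

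ARRDC2, an arrestin known to take part in receptor internalisation, moved in fewer lines. In CLIP it stood at 11, 11.1 and 10.2 CPM with siNT and 17.6, 18.6 and 18.7 CPM with siUPF1, a log2 difference of 0.76 (SE 0.10) with no overlap. Levels in WT overlapped: 12.1, 12.7 and 12.7 CPM against 9.9, 11.4 and 13.4 CPM, a log2 difference of -0.12 (95% interval -0.32 to 0.08). ARRDC2 rose in K498A, from 12, 10.5 and 13.2 to 16.7, 16.2 and 16.5 CPM (0.46, SE 0.10, edgeR adjusted p = 0.000403).

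The rise of ARRDC2 in DE636AA, from 12.1, 13.3 and 14.3 to 15.6, 16 and 18.6 CPM, was 0.34 (edgeR adjusted p = 0.00826). R843C went from 11.6, 12 and 12.5 to 15, 15.7 and 14.4 CPM, a rise of 0.32 (edgeR adjusted p = 0.0133). These smaller calls each rested on single libraries: that of DE636AA was lost without its siNT replicate 1 (adjusted p = 0.0634) or siUPF1 replicate 3 (0.0914). That of R843C was lost without its siNT replicate 1 (adjusted p = 0.0562), siUPF1 replicate 1 (0.0531) or siUPF1 replicate 2 (0.0912), and with no filter on low counts (0.166). In A546H, GA-KH and E797R the log2 differences of ARRDC2 were 0.02, -0.06 and -0.01, with 95% intervals that together ran from -0.26 to 0.22.

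ARRDC3, an arrestin known for the down-regulation of adrenergic receptors and integrins, did not pass the test in any of the 7 lines with a UPF1 transgene. Its log2 differences there ran from 0.04 (E797R) to 0.34 (R843C), and the smallest edgeR adjusted p was 0.276. The precision was low: the 95% interval was -0.11 to 0.78 in R843C and -0.31 to 0.60 in WT. In the CLIP line the siNT libraries stood at 24.9, 22.5 and 20 CPM and the siUPF1 libraries at 44.7, 18.0 and 31.5 CPM. The lowest of the latter was replicate 2, the library that stood apart, and the log2 difference of 0.48 was 0.75 without it and 0.15 without replicate 1.

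TSC22D3 showed the largest difference of the 6 genes in the CLIP line. Its levels there were 147, 142 and 182 CPM with siNT and 789, 816 and 1127 CPM with siUPF1, a log2 difference of 2.54 (SE 0.18), 5.81-fold. In WT it stood at 194, 169 and 247 CPM and then at 345, 287 and 426 CPM, with no overlap. The rise in WT was 0.79 (SE 0.17), 1.73-fold, with an edgeR adjusted p of 0.000486.

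DE636AA and K498A gave the largest TSC22D3 rises among the mutants. DE636AA went from 209, 226 and 263 to 565, 558 and 714 CPM (log2 1.40) and K498A from 216, 191 and 247 to 560, 516 and 612 CPM (1.37). R843C (218, 219 and 260 against 448, 462 and 557 CPM) and A546H (206, 220 and 265 against 404, 461 and 511 CPM) rose by 1.07 and 1.00. For TXNIP the order of these 4 lines was the other way round, with R843C and A546H ahead. GA-KH went from 141, 192 and 190 to 273, 408 and 385 CPM (1.03), and E797R from 131, 126 and 169 to 207, 198 and 280 CPM (0.68). All 6 rises passed edgeR's test with adjusted p from 4.8e-08 to 0.00218, and no siUPF1 library overlapped its siNT libraries.

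TSC22D1, the other TSC22 gene, hardly varied: its 48 values lay between 76.7 and 103 CPM. The log2 differences were between 0.05 and 0.20 in the 7 transgene lines and -0.06 in CLIP. Rises of 0.20 in GA-KH (88.7, 77.6 and 83.5 against 100, 91.4 and 96.3 CPM) and in E797R (90, 82.2 and 85 against 101, 95.9 and 97.7 CPM) passed edgeR's test with adjusted p of 0.0153 and 0.0203. The groups did not overlap in either line, but both calls were lost with the compared groups fitted alone (adjusted p = 0.0726 and 0.0605) and with no filter on low counts (0.361 and 0.481). They were also lost without GA-KH siNT replicate 2, siUPF1 replicate 1 or siUPF1 replicate 3 (largest adjusted p = 0.157) and without E797R siNT replicate 2 or 3 or siUPF1 replicate 1 or 3 (largest 0.135). In WT, where 2 siUPF1 libraries stood at 103 and 101 CPM and replicate 3 at 82.8, the difference of 0.14 passed only without replicate 3 (0.21, adjusted p = 0.0109).

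**Figure D1:**
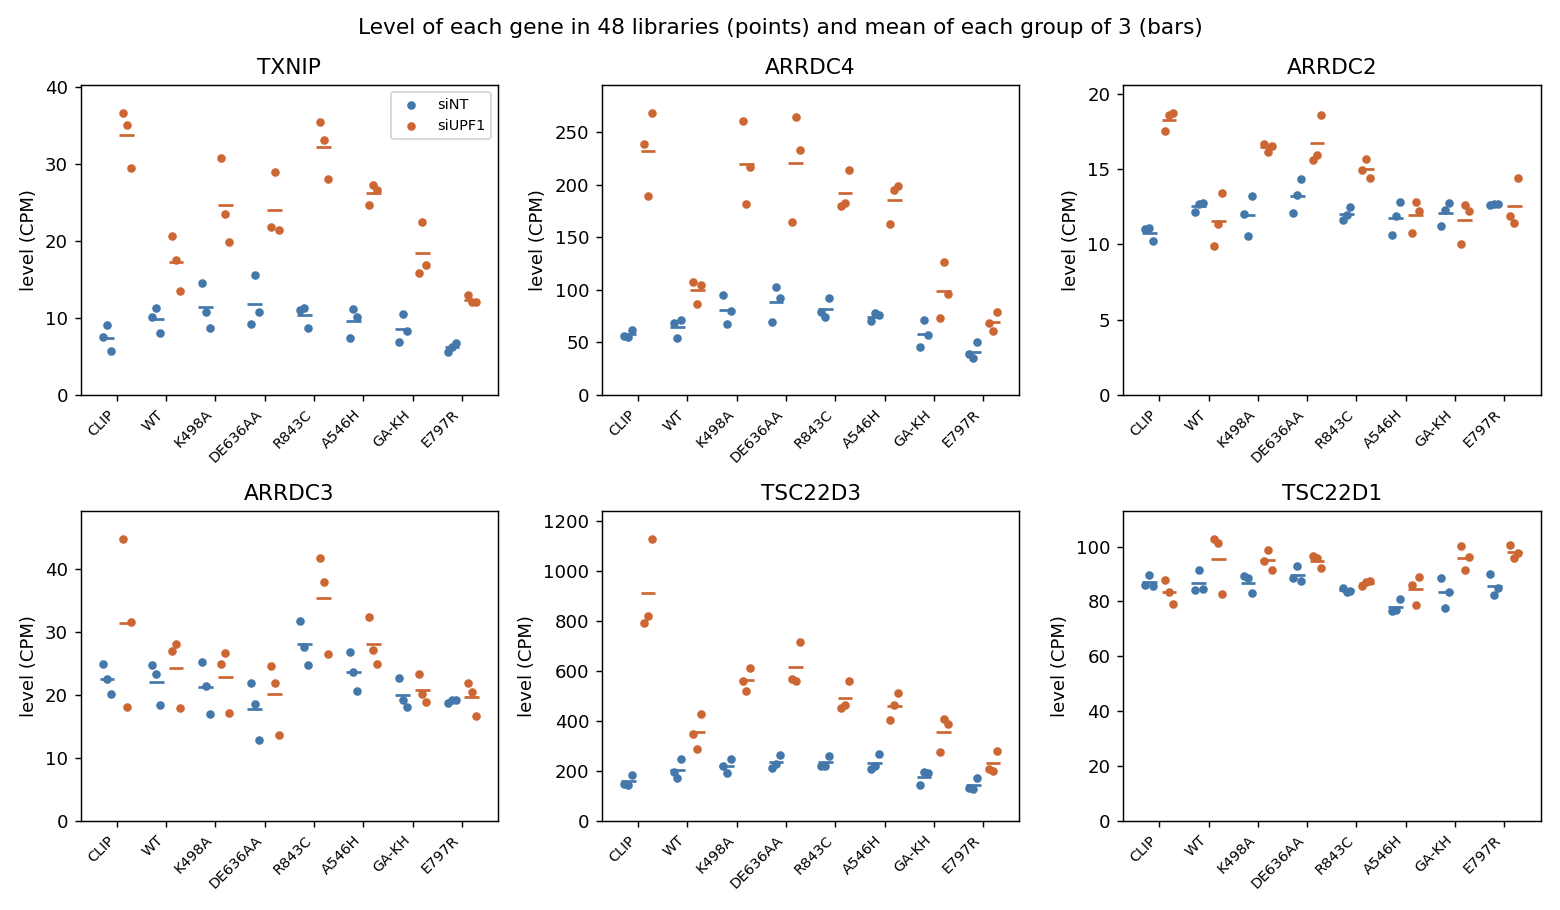
Level of each of the 6 genes in CPM (vertical axis, linear from 0) in the 8 lines (horizontal axis), with siNT in blue and siUPF1 in orange; points are single libraries and short bars the mean of 3. TXNIP, ARRDC4 and TSC22D3 are separated in every line and highest in CLIP siUPF1, with means of 33.7, 232 and 911 CPM, whereas TSC22D1 stays between 76.7 and 103 CPM.

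Counted over the 6 genes, those higher at an adjusted p under 0.05 numbered 3 in WT and A546H and 4 in K498A, DE636AA, R843C, GA-KH and E797R, and none was called lower in these 7 lines. Among all tested genes, 14% were called higher for the WT line, and for the mutants 16% (E797R), 14.5% (GA-KH), 17.2% (A546H), 17.7% (R843C), 16.7% (DE636AA) and 16.2% (K498A). Called lower were 13.3% for WT, 13.5% for E797R, 13.8% for GA-KH, 15% for A546H, 14.8% for R843C, 17.6% for DE636AA and 16.5% for K498A. Genes with every siUPF1 library above every siNT library numbered 3 of 6 in WT and A546H, 4 in DE636AA, GA-KH and E797R, and 5 in K498A and R843C. Over all tested genes that share was 20.2% for WT, 23.5% for E797R, 23.9% for GA-KH, 24.1% for A546H, 28.8% for R843C, 22.1% for DE636AA and 23.4% for K498A. In CLIP, whose values were known when the genes were picked, 4 of 6 were separated in this way, and 23.2% of all tested genes were. The median log2 difference of the 6 genes ran from 0.39 (WT) to 0.79 (K498A) in the 7 lines, and that of all tested genes from -0.02 to 0.02. The genes were selected with responses to this siRNA known, and the lines share that siRNA. Their excess over all genes is therefore a description in every line, and the 7 lines give no independent support for it.

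**Figure D2:**
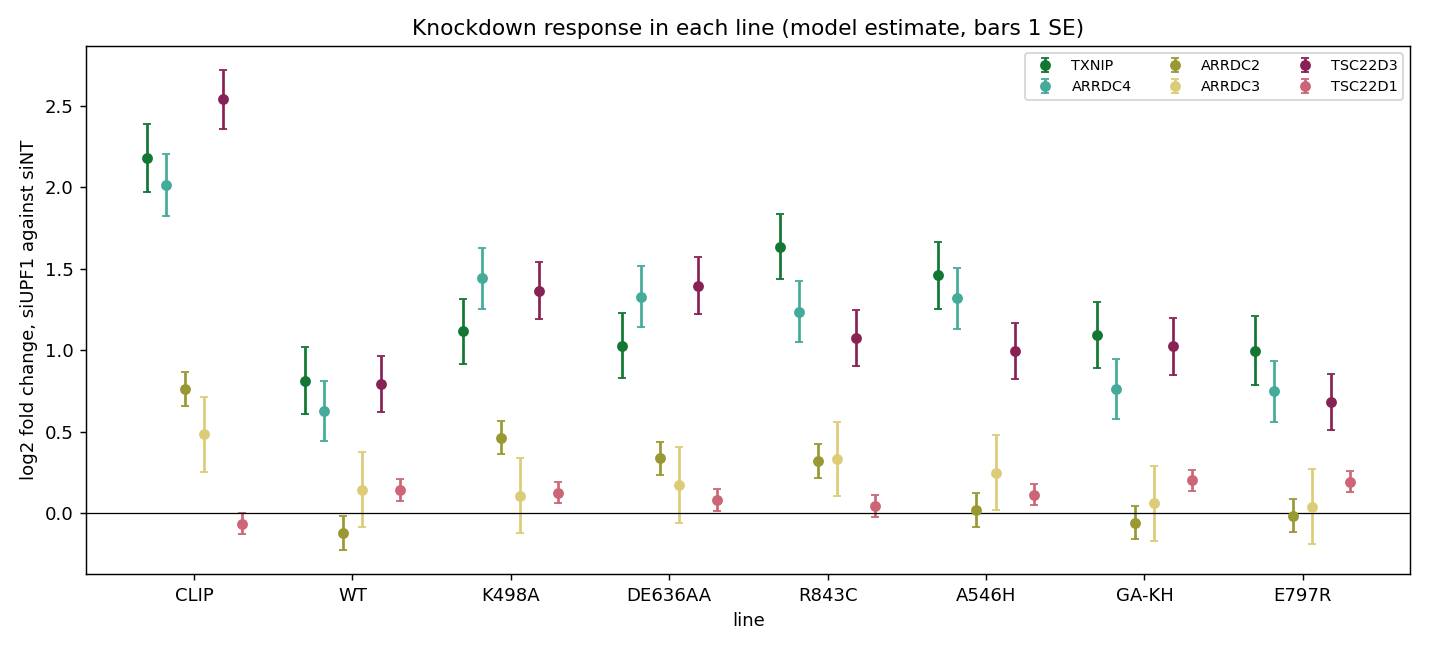
Log2 fold change of siUPF1 against siNT (vertical axis) for each gene in each line (horizontal axis), as estimated by edgeR over all 48 libraries; bars are 1 SE on either side. TXNIP, ARRDC4 and TSC22D3 lie above 2 in CLIP and between 0.63 and 1.64 in the other 7 lines; ARRDC2 lies near 0 in WT, A546H, GA-KH and E797R.

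Set against the WT line, the estimated response was larger for 4 or 5 of the 6 genes in each of the 6 mutant lines. The share of all tested genes with a larger response was not counted. The median difference from WT ran from 0.08 (E797R) to 0.44 (K498A) over the 6 genes. Over all tested genes it ran from -0.02 (DE636AA) to 0.02 (E797R). In the fit with 1 term per group, few of these differences could be separated from the spread. Because the 6 comparisons share the WT libraries, they are not independent of one another. Only ARRDC2 in K498A was called for a response different from that in WT, and this count depended on the fit: other settings called 0 to 4 of the 6 genes in a line, as given in the closing section. The difference was 0.59 on the log2 scale (SE 0.14, 95% interval 0.30 to 0.87, edgeR adjusted p = 0.0145), with 3.26% of all tested genes called in that comparison. It no longer passed without WT siUPF1 replicate 1 (0.48, adjusted p = 0.0822), without K498A siNT replicate 2 (0.50, 0.0639), with the compared groups alone (0.59, 0.0742) or with no filter on low counts (0.60, 0.103).

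No other difference from WT was called in the same fit, with 4.5% of all tested genes called in DE636AA, 1.94% in R843C, 0.298% in A546H and 0% in GA-KH and E797R, where 315 and 359 genes had an unadjusted p under 0.05 and DESeq2 also called 0. ARRDC2 came nearest in DE636AA (0.46, interval 0.18 to 0.74, edgeR adjusted p = 0.0595), and this passed without WT siUPF1 replicate 3 (0.60, adjusted p = 0.0129). In R843C the ARRDC2 difference of 0.44 (interval 0.16 to 0.73, edgeR adjusted p = 0.137) also passed without that library (0.57, 0.0286). ARRDC4 was larger than in WT by 0.82 in K498A (interval 0.30 to 1.33, edgeR adjusted p = 0.0803), 0.70 in DE636AA, 0.61 in R843C and 0.69 in A546H, each with an interval above 0 before adjustment. In GA-KH and E797R its differences from WT were 0.14 and 0.12, with intervals of -0.38 to 0.65 and -0.39 to 0.64. The 315 and 359 genes of these lines with an unadjusted edgeR p under 0.05 were few. On average, 19129 genes without any difference would give more. The 0% called there therefore does not show equal responses, and the reason for the low counts was not tested.

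For TXNIP and TSC22D3 no difference from WT passed in a mutant line in the fit with 1 term per group and the filter on low counts. The estimated TXNIP difference was 0.82 in R843C (interval 0.26 to 1.38, edgeR adjusted p = 0.172) and 0.64 in A546H (0.08 to 1.21, adjusted p = 0.534), but 0.30 in K498A and 0.21 in DE636AA, both with intervals that span 0. For TSC22D3 it was 0.57 in K498A (0.10 to 1.05, edgeR adjusted p = 0.247) and 0.60 in DE636AA (0.13 to 1.08, adjusted p = 0.177), but 0.28 in R843C and 0.20 in A546H, again with intervals that span 0. With the replicate numbers of the labels used as a block, TXNIP passed in R843C and A546H. TSC22D3 then passed in K498A, DE636AA and R843C, as given in the closing section. With 1 term per group but no filter on low counts, more of the 6 genes passed in K498A, DE636AA, R843C and A546H. Those calls are counted, but not named, in the closing section. Whether the gene and the line interact was not tested. The CLIP line differed from WT by 1.36 for TXNIP, 1.38 for ARRDC4, 1.74 for TSC22D3 and 0.89 for ARRDC2, given as a description.

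With siNT, none of the 6 genes was called different from WT in a mutant line in the fit with 1 term per group and the filter on low counts. Few genes were: 0.889% of all tested for A546H, 0.0889% for R843C, 0.0889% for GA-KH, 0.047% for E797R, 0.0261% for K498A and 0.0261% for DE636AA. E797R siNT held the lowest means of the 16 groups for TXNIP (6.17 CPM), ARRDC4 (41.1 CPM) and TSC22D3 (142 CPM). Against WT siNT these were differences of -0.67 (interval -1.08 to -0.25, edgeR adjusted p = 0.551), -0.65 (-1.01 to -0.28, adjusted p = 0.507) and -0.52 (-0.85 to -0.18, adjusted p = 0.585). That none passed depended on the fit. With no filter on low counts some of the 6 genes were called at siNT in E797R and DE636AA. With the replicate block TSC22D3 was called in E797R, as given in the closing section. Every E797R siNT library was below every WT siNT library for TXNIP and ARRDC4, but not for TSC22D3, and 11.2% of all tested genes were separated in that direction. In CLIP siNT the log2 differences from WT siNT were -0.40 for TXNIP, -0.16 for ARRDC4 and -0.37 for TSC22D3, given as a description.

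**Figure D3:**
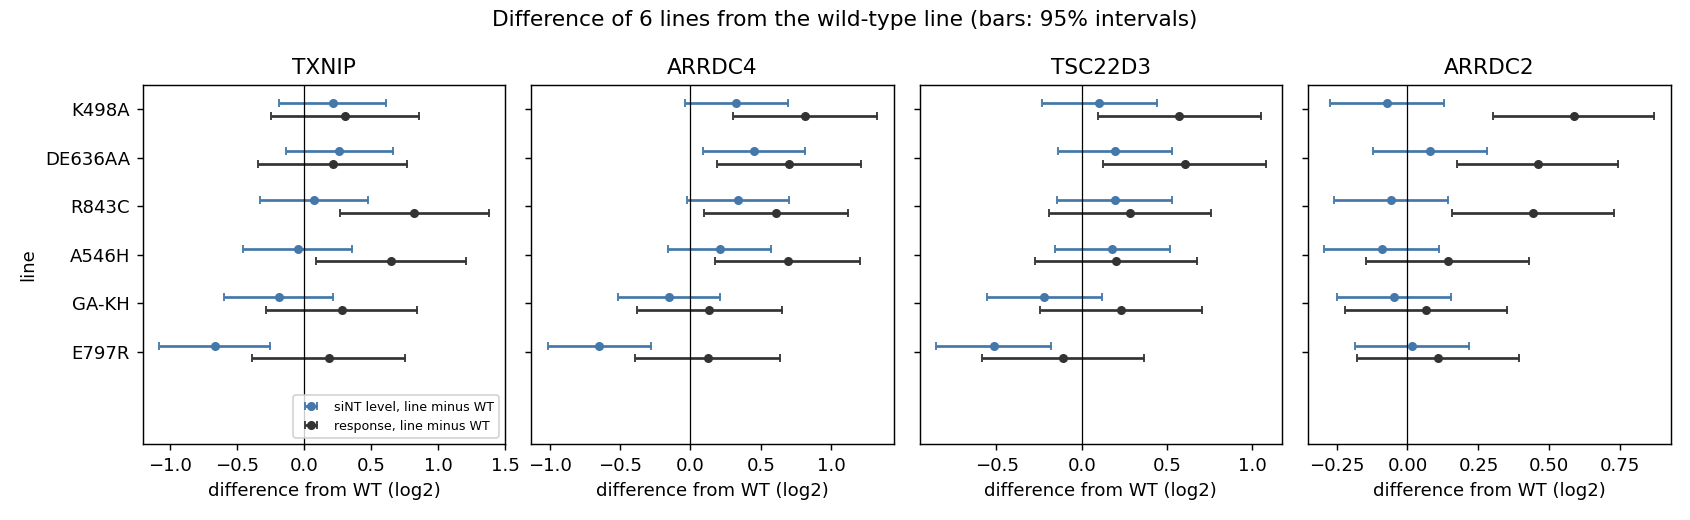
Difference of each of 6 mutant lines (vertical axis) from the WT line on the log2 scale (horizontal axis) for 4 genes; blue is the siNT level, dark grey the siUPF1 response, and bars are 95% intervals before any adjustment for the number of genes. ARRDC2 in K498A (0.59) is the only difference shown that passed the test across all genes in the fit with 1 term per group and the filter on low counts.

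Ordered by mean level over the 16 groups, TXNIP put all 8 siNT groups below all 8 siUPF1 groups, though the lowest siUPF1 group (E797R, 12.4 CPM) and the highest siNT group (DE636AA, 11.9 CPM) were close. ARRDC4 and TSC22D3 had 7 of the 8 siNT groups in the lower 8, with E797R siUPF1 (69.2 and 228 CPM) among them. The span from lowest to highest group was 5.46-fold for TXNIP, 5.64-fold for ARRDC4 and 6.42-fold for TSC22D3, against 1.69-fold for ARRDC2, 1.99-fold for ARRDC3 and 1.26-fold for TSC22D1. Of the 15 neighbouring pairs in each order, the gap was larger than the greater SD of the pair in 3 for TXNIP, 2 for ARRDC4, 4 for TSC22D3, 2 for ARRDC2, 0 for ARRDC3 and 1 for TSC22D1. For TSC22D3 these gaps lay below CLIP siUPF1 (911 ± 188 CPM, SD, n = 3), K498A siUPF1 (563 ± 47.9), A546H siUPF1 (459 ± 53.9) and WT siUPF1 (352 ± 69.6). The widest gap for ARRDC4 lay between A546H siUPF1 (185 ± 19.6 CPM, n = 3) and WT siUPF1 (99.5 ± 11.6). Most neighbours therefore did not differ beyond their spread. ARRDC3 was highest in R843C siUPF1 (35.3 ± 8 CPM) and lowest in DE636AA siNT (17.7 ± 4.58).

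Across the 16 group means of log2 level, TXNIP, ARRDC4 and TSC22D3 were highly correlated with one another: r was 0.959 for TXNIP and ARRDC4, 0.964 for TXNIP and TSC22D3 and 0.968 for ARRDC4 and TSC22D3. The points share the siRNA contrast, so this describes a common pattern over groups. Within groups the relation was different. The deviations of the 48 libraries from their group means had an r of 0.709 between ARRDC4 and TSC22D3, 0.353 between TXNIP and ARRDC4 and -0.191 between TXNIP and TSC22D3. ARRDC3 and TSC22D3 deviated in opposite directions, with an r of -0.61 (rho -0.643), and -0.726 without the 2 libraries farthest from the median. These deviations went along with the replicate number in the labels: TSC22D3 was highest in replicate 3 in 14 of 16 groups, whereas ARRDC3 was lowest in replicate 3 in 14 groups and highest in replicate 1 in 13. What the replicate number stands for is not given in the labels.

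**Figure D4:**
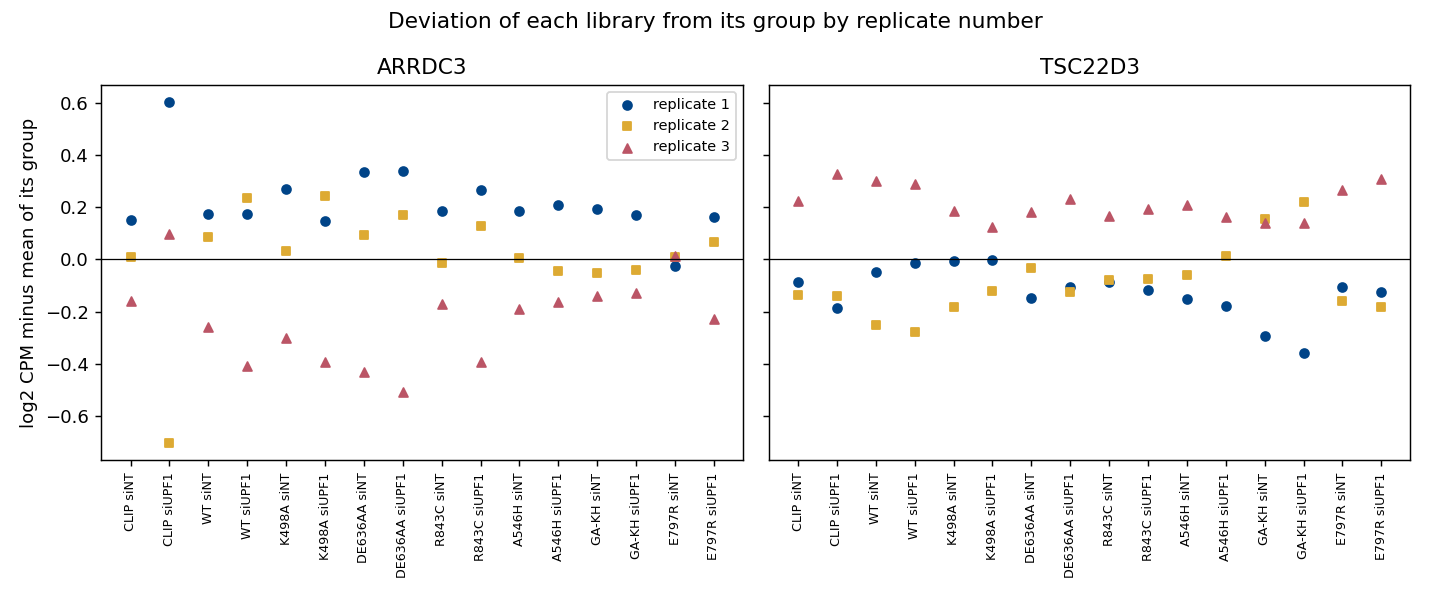
Deviation of each library from the mean of its group in log2 CPM (vertical axis) over the 16 groups (horizontal axis) for ARRDC3 and TSC22D3, with replicate 1 as circles, 2 as squares and 3 as triangles. Triangles lie at the top for TSC22D3 in 14 groups and at the bottom for ARRDC3 in 14 groups.

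Of 11539 genes averaging 5 CPM or more, those whose pattern over the 16 group means was most like that of each gene were found by Pearson correlation. For TXNIP they were ZNF423 (0.978), HRK (0.977) and MLLT6 (0.976). For ARRDC4 they were COX19 (0.966), HACE1 (0.965) and LRRC37BP1 (0.962), and for TSC22D3 MZT2A (0.966), TTC31 (0.965) and EFNB1 (0.959). ARRDC2 was followed most closely by ERN1 (0.937), MAN2A2 (0.925) and ATF3 (0.92), of which ERN1 and ATF3 are known from the unfolded-protein and integrated stress responses. ARRDC3 had RIOK3 (0.961), FAM204A (0.95) and the decapping enzyme gene DCP2 (0.931), and TSC22D1 had SIX4 (0.959), MTSS1 (0.952) and SLC6A6 (0.944). Without the 2 CLIP groups ZNF423 and HRK were again among the 3 nearest to TXNIP, but none of the 3 nearest to ARRDC4 or to TSC22D3 was shared. TMEM167B was then among the 3 nearest to both of them.

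The other arrestin and TSC22 genes moved little. Of ARRDC1, ARRDC5, TSC22D2 and TSC22D4, all but ARRDC5 could be tested. Only CLIP, with 2 called higher (ARRDC1 and TSC22D4), and DE636AA, with 1 (TSC22D2), gave any call, and none was lower. Of all tested genes, 47.4% were called either way in CLIP and 16.7% higher in DE636AA. Both CLIP calls were lost without CLIP siUPF1 replicate 2 (ARRDC1 0.13, edgeR adjusted p = 0.433; TSC22D4 0.17, adjusted p = 0.29).

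The genes for MondoA and its partner rose in every line. MLXIP, which encodes MondoA, stood at 122, 131 and 113 CPM in WT siNT and at 161, 178 and 163 CPM in WT siUPF1, with no overlap. Its log2 rise was 0.45 in WT, the smallest of the 8 lines, 0.61 to 0.83 in the mutants and 1.11 in CLIP, where replicate 2 was the highest library at 326 CPM and the rise without it was 0.85. The edgeR adjusted p was at most 0.000401. MLX rose by 0.32 (CLIP, and 0.42 there without siUPF1 replicate 2) to 0.69 (E797R), also called in all 8 lines. Of the 10 tested genes in a list of MondoA factors and targets, 3 or 4 were called higher and at most 2 lower in each line; over all tested genes the shares were 14% to 17.7% higher and 13.3% to 17.6% lower in the 7 transgene lines, and 47.4% either way in CLIP. Among known targets, HK2, a hexokinase, was called higher in 4 lines (log2 0.15 to 0.55 over all 8). KLF10, a transcriptional repressor, was called lower in 2, WT (-0.52) and GA-KH (-0.43). Of the same list, FBXO32, a ubiquitin ligase subunit, was called higher in all 8, and ALDOA, a glycolytic aldolase, lower in K498A, DE636AA and A546H. FBXO32 was not part of the list of glucocorticoid receptor and FOXO target genes described below.

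SLC2A1, the glucose transporter GLUT1, which TXNIP and ARRDC4 are known to remove from the cell surface, stood at 40.9, 42 and 45.3 CPM in WT siNT and at 69.5, 79.3 and 83.8 CPM in WT siUPF1. It rose in all 8 lines, by 0.49 (K498A) to 0.93 (CLIP) on the log2 scale, with an edgeR adjusted p of at most 0.000196. The rise in CLIP was 0.84 without siUPF1 replicate 2. SLC2A3 (GLUT3) was called higher in K498A, DE636AA, R843C and E797R (0.40 to 0.51). Of the 11 genes of glucose uptake and the first steps of glycolysis, 2 to 5 were called higher and 0 to 3 lower in a line. The shares of all tested genes were 14% to 17.7% and 13.3% to 17.6% in the 7 transgene lines, and 47.4% either way in CLIP. PFKL was higher in all 8, and PFKP lower in K498A, DE636AA and R843C. In CLIP the split of 5 higher and 2 lower became 4 and 5 without siUPF1 replicate 2.

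Of 11 genes of the thioredoxin system, to which TXNIP binds, 2 or 3 were called higher and 0 to 3 lower in each line, beside the shares over all tested genes (14% to 17.7% higher and 13.3% to 17.6% lower in the 7 transgene lines, 47.4% either way in CLIP). TXNRD2, the mitochondrial thioredoxin reductase, and PRDX1, a peroxiredoxin, were higher in all 8 lines, and the glutaredoxin GLRX was lower in all but GA-KH. TXN itself had log2 differences from -0.50 to -0.07 and was called lower in CLIP and A546H. TXNRD1 was called higher in K498A (0.25) and DE636AA (0.34) and lower in CLIP (-0.30). Without CLIP siUPF1 replicate 2 neither CLIP call passed (TXN -0.26, edgeR adjusted p = 0.127; TXNRD1 -0.19, adjusted p = 0.059).

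The NEDD4-family ligases, which the arrestins recruit, split by gene. NEDD4L rose in all 8 lines by 0.28 (K498A) to 0.44 (A546H). WWP1 fell in all 8: in WT it stood at 51.8, 49 and 50.6 CPM with siNT and at 23.7, 24.8 and 21.5 CPM with siUPF1, a log2 change of -1.11. Over the lines the change of WWP1 ran from -1.31 (CLIP) to -0.77 (DE636AA), with an edgeR adjusted p of at most 3.95e-06. In CLIP it was -1.13 without siUPF1 replicate 2. WWP2 and SMURF1 were higher in all 8. Of the 13 genes of this list 3 to 5 were called higher and 1 to 5 lower in a line, where all tested genes gave 14% to 17.7% higher and 13.3% to 17.6% lower in the 7 transgene lines, 47.4% either way in CLIP. ITCH was called lower in CLIP alone (-0.38), a call lost without siUPF1 replicate 2 (-0.19, adjusted p = 0.111).

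Of 20 glucocorticoid receptor and FOXO target genes, 2 to 5 were called higher and 1 to 5 lower in a line. This was near the shares of all tested genes (14% to 17.7% and 13.3% to 17.6% in the 7 transgene lines, 47.4% either way in CLIP). NR3C1, the receptor, and PER1 were called in no line. FKBP5, a classic target, was called lower in 6 lines (log2 -0.28 to -0.10 over all 8), of which the CLIP call (-0.17) was lost without siUPF1 replicate 2 (-0.11, adjusted p = 0.15). KLF9 was called lower in CLIP, K498A and R843C. FOXO3 was called higher in 7 lines, with 0.15 in K498A as the exception (edgeR adjusted p = 0.056), and the pro-apoptotic BCL2L11 in 7, with DE636AA as the exception. The median log2 difference of the list ran from -0.12 to 0.07. In CLIP the 5 lower calls became 2 without siUPF1 replicate 2.

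Of 12 WNK kinases and partners of the TSC22 proteins, 3 to 5 were called higher and 2 or 3 lower in a line. The shares of all tested genes were 14% to 17.7% and 13.3% to 17.6% in the 7 transgene lines, and 47.4% either way in CLIP. WNK4 and the WNK substrate kinase OXSR1 were called higher in all 8 lines and WNK1 in 6 (0.15 to 0.45 over all 8). NRBP2, a pseudokinase bound by long TSC22 proteins, fell in all 8 by 0.47 (CLIP) to 0.71 (GA-KH), and its relative NRBP1 was called higher in 1 (0.18 to 0.39 over all 8). Without CLIP siUPF1 replicate 2 the NRBP2 change in CLIP was -0.80, so that CLIP no longer had the smallest fall. Among 9 genes, mostly of AP-1 and NF-kappaB, whose products TSC22D3 is known to bind or oppose, NFKB1 was higher in all 8 lines and RELA was called in none. JUN was called higher in 5 lines (0.32 to 0.79 over all 8), with 0.79 in CLIP and 0.52 there without siUPF1 replicate 2. DE636AA had 7 of 9 called higher and R843C 1 of 9, where 16.7% and 17.7% of all tested genes were. The only lower calls were JUNB in A546H and FOS in GA-KH. The 5 calls in CLIP became 3 without siUPF1 replicate 2, when 40.5% of all genes tested were called either way, against 47.4% with it.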

How the data were processed

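RNA-seq of 48 libraries was analysed from the expected counts per gene that the authors deposited. The submitters' processing notes name cutadapt, STAR, RSEM, DESeq2 and hg19; versions, annotation release and strand setting are not given in the sources used here. Expected counts were rounded. Genes passing edgeR's filterByExpr over the 16 groups (minimum count 10) were kept, 19129 of 57820, holding at least 99.94% of each library. TMM scaling and edgeR's quasi-likelihood test (edgeR 4.0.16, limma 3.58.1, R 4.3.3) were used with 1 term per group over all 48 libraries. Benjamini-Hochberg adjustment covered all tested genes, with a threshold of 0.05. There were 22 comparisons: 8 of siUPF1 against siNT, 7 of a line's response against that of WT and 7 of siNT levels against WT. Intervals are nominal 95% ones, from the SE and the normal distribution, and unadjusted. They are slightly narrower than the test implies: that of TSC22D1 in K498A was 0.001 to 0.256, with an unadjusted edgeR p of 0.0552. Levels are CPM on TMM-scaled totals. The code was tested on simulated counts.

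The 6 genes and the gene lists were chosen with earlier results of these data known. The rule for named genes took the 6 genes, ARRDC1, ARRDC5, TSC22D2, TSC22D4, preset examples of each list (MLXIP, MLX, KLF10, HK2, TXN, TXNRD1, SLC2A1, SLC2A3, ITCH, NEDD4L, WWP1, NR3C1, FKBP5, PER1, FOXO3, KLF9, WNK1, NRBP1, NRBP2, JUN, RELA, VIM, NEFM) and the 3 genes most like each of the 6. Other list genes are named outside this rule, after their values were seen, and some genes are not reported here. Likeness was Pearson's r over group means of log2 CPM, among genes averaging at least 5 CPM. Promoter windows came from RefSeq (GRCh38.p14), whereas the counts used hg19, so no coordinate of one was applied to the other. No 2 libraries of a group agreed within sampling noise. Alternatives were DESeq2 1.42.0, its size factors in edgeR, no filter, the compared groups alone, a replicate block, plain library totals and each library left out; values without CLIP siUPF1 replicate 2 for the gene lists were added after seeing the data.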

Additional observations from a re-analysis of the deposited data

Results flagged for a closer look

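The response of ARRDC2 to UPF1 siRNA differed between the K498A and WT lines by 0.59 on the log2 scale (edgeR adjusted p = 0.0145). It was the only such difference called for the 6 genes in the mutant lines in the fit with 1 term per group and the filter on low counts. The K498A siUPF1 libraries stood at 16.7, 16.2 and 16.5 CPM and those of WT at 9.9, 11.4 and 13.4 CPM, and over the libraries left out in turn the adjusted p ran from 0.00326 to 0.0822.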

How the results depend on the processing

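The number of the 6 genes called for a response different from WT depended on the setting. For K498A it was 1, and 2 with no filter, 0 with the compared groups alone, 3 with the replicate block, 2 by DESeq2 and 0 to 1 with single libraries left out. For DE636AA it was 0, and 2 with no filter, 3 with the block, 1 by DESeq2 and 0 to 1 with a library left out. For R843C it was 0, and 2 with no filter, 4 with the block and 0 to 1 with a library left out, and for A546H 0, and 1 with no filter and 2 with the block. At siNT, DE636AA went from 0 to 1 with no filter, and E797R from 0 to 3 with no filter and 1 with the block. The cause was not tested. The genes gained with the block were ARRDC4 and TSC22D3 in K498A (0.81 and 0.58, edgeR adjusted p = 4.93e-06 and 2.01e-05), ARRDC2, ARRDC4 and TSC22D3 in DE636AA, TXNIP, ARRDC2, ARRDC4 and TSC22D3 in R843C, TXNIP and ARRDC4 in A546H, and TSC22D3 at siNT in E797R. The block used the replicate numbers of the labels, which exceeded a correlation of 0.1 in 15 of 24 same-number pairs, while 20 of 24 correlated best with their own number; it changed no call of a single line's response.

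Signs changed only for values that were not called. ARRDC3 in E797R was -0.00 with no filter. With libraries left out, the response of ARRDC3 ran from -0.03 to 0.26 in K498A, -0.01 to 0.38 in DE636AA, -0.05 to 0.16 in GA-KH and -0.06 to 0.13 in E797R. That of ARRDC2 ran from -0.06 to 0.08 in A546H, -0.15 to 0.01 in GA-KH and -0.14 to 0.05 in E797R. Responses minus WT ran from -0.05 to 0.18 (ARRDC2) and -0.09 to 0.32 (ARRDC4) in GA-KH, and from -0.02 to 0.22 (ARRDC2), -0.01 to 0.29 (ARRDC4) and -0.31 to 0.04 (TSC22D3) in E797R. At siNT, differences from WT ran from -0.01 to 0.36 (TXNIP), -0.15 to 0.02 (ARRDC2) and -0.02 to 0.27 (TSC22D3) in K498A. TXNIP ran from -0.06 to 0.19 in R843C and -0.18 to 0.12 in A546H, and ARRDC2 from -0.09 to 0.00 in GA-KH and -0.01 to 0.03 in E797R.

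Over all genes, fitting the compared groups alone took the CLIP calls from 9066 to 3741 and those of its difference from WT from 2267 to 522 (3612 with the block). Differences from WT went from 623 to 1180 in K498A and 371 to 643 in R843C with the block, and from 860 to 460 (groups alone) or 1554 (block) in DE636AA. A546H gave 57, and 153 with no filter, 9 with the groups alone, 159 with the block and 119 by DESeq2. GA-KH and E797R gave 0, and 35 and 56 with no filter. At siNT, the counts of 6 (CLIP), 5 (K498A), 5 (DE636AA), 17 (R843C), 17 (GA-KH) and 9 (E797R) became 57, 65, 113, 56, 58 and 75 with no filter, and the 170 of A546H became 11 with the groups alone, 588 with the block and 469 by DESeq2. With the groups alone R843C gave 136, E797R 44, and K498A and DE636AA 3 each; with the block DE636AA gave 20, R843C 37 and E797R 17. DESeq2 gave 10 (CLIP), 12 (K498A), 16 (DE636AA), 33 (R843C) and 17 (E797R). 3 libraries a group and 156 to 1443 counts of TXNIP a library limit what could be separated.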
